A study of Mus musculus with 4 samples.

Results

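The genes described here encode core subunits of the mammalian SWI/SNF chromatin remodelling complexes BAF and PBAF: Arid1a, Arid1b, Arid2, Smarca4, Smarca2, Smarcb1, Smarcc1, Pbrm1, Ss18 and Brd9. They were 10 of the 21883 protein-coding genes placed on chromosomes 1 to 19, X and Y. Accessible chromatin was followed in a window per gene, made of the gene body and 10 kb on each side. The windows held 132 of the 103629 regions obtained by merging the 4 deposited peak lists. All samples were cultured B16F10 cells, a line from a mouse melanoma. They carried either a scrambled guide RNA (sgScramble, 2 libraries) or a guide against Arid1a (sgArid1a, 2 libraries). Open chromatin was read by Omni-ATAC-seq, which tags it with a loaded Tn5 transposase, with 50000 cells per reaction. The sources used here do not say whether the guided cells were a clone or a pool, nor whether replicates were separate cultures. The p-values therefore measure only the spread between these libraries, which may be technical.

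SWI/SNF complexes use the energy of ATP to slide or evict nucleosomes, and they open promoters and above all enhancers for transcription factors. Each complex is built around an ATPase, either SMARCA4 (BRG1) or SMARCA2 (BRM), on a scaffold that includes SMARCC1. The ARID subunits set the type of complex: ARID1A or ARID1B in canonical BAF, and ARID2 with PBRM1 in PBAF. A non-canonical form lacks ARID subunits and carries BRD9. ARID1A and ARID1B are paralogs that exclude each other from a complex, as are the ATPases, and ARID1A is among the subunits most often mutated in human cancers. The question addressed here was how accessible chromatin at these genes compared between cells with the scrambled guide and cells with the guide against Arid1a.

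The sequences of 5 start sites are shown because each lies in a region that was open in all 4 libraries and because the results below return to them. They come from RefSeq on GRCm38.p6, cover 250 bases before to 50 after the start, and are written 5′ to 3′ on the gene's strand. Capitals mark matches to the motifs searched.
Arid1a outer start (chr4:133756720-133757019, strand -): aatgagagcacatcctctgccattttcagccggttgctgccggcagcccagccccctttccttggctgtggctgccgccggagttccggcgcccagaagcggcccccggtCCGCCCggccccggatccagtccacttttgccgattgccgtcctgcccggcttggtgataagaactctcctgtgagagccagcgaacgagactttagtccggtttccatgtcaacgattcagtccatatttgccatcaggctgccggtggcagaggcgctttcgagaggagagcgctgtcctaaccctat
Arid1a inner start (chr4:133753936-133754235, strand -): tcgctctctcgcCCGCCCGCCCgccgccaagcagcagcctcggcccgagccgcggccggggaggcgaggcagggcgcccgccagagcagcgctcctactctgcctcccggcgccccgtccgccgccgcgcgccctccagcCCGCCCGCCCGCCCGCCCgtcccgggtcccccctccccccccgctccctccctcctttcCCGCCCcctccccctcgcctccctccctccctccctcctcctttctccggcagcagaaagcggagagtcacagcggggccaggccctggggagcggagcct
Smarca4 (chr9:21615919-21616218, strand +): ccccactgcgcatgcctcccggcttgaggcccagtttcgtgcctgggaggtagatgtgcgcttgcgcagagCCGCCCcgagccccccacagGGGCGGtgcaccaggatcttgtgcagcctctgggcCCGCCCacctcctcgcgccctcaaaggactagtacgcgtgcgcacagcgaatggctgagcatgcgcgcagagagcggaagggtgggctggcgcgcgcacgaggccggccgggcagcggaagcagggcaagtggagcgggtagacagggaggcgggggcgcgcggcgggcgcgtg
Smarcc1 (chr9:110131774-110132073, strand +): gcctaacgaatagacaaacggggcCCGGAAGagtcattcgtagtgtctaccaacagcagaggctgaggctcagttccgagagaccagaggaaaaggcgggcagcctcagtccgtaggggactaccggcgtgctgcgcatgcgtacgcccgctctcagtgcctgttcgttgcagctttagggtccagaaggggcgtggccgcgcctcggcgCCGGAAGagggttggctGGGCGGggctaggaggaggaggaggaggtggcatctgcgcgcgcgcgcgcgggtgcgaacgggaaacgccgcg
Pbrm1 (chr14:31018888-31019187, strand +): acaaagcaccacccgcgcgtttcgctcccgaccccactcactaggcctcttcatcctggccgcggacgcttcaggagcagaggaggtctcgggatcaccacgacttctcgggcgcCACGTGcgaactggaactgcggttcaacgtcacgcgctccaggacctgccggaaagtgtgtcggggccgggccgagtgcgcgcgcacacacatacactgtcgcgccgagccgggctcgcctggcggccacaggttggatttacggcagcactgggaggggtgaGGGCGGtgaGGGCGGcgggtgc

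The promoter table matched 8 of the 10 genes with 10 entries, and Arid2 and Ss18 had none. The entries were rich in CpG, with 22 to 42 CpG dinucleotides in 300 bases (median 34) against a median of 7 over all 32851 promoters. The motifs searched, on both strands and with overlapping matches counted separately, were GGGCGG (the GC box bound by SP factors), CCGGAAG (bound by ETS factors), TGANTCA (bound by AP-1), CACGTG (the E-box), ATGGCGG (part of the YY1 motif) and the CCAAT box. Matches of different motifs may overlap, and TGANTCA and CACGTG read the same on both strands. GGGCGG was in 10 of the 10 entries, against 35.7% of all promoters, and the inner start of Arid1a alone held 7 matches. CCGGAAG was in 4 entries, from 3 of the 8 genes (8.86% of all promoters), at Smarca2, Smarcc1 and both starts of Brd9. Both Brd9 entries (chr13:73937561-73937860 and chr13:73937578-73937877) share most of their bases and hold the same CCGGAAG match. TGANTCA was in the entries of Smarca2 and Smarcb1 (7.81%) and CACGTG in that of Pbrm1 (7.15%). CCAAT and ATGGCGG were in 0 entries (37.4% and 4.05% of all promoters).

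The sgArid1a lists were shorter than the sgScramble lists, with 65353 and 71255 peaks against 82319 and 85613, and they covered 53.7 and 62.6 Mb against 73.9 and 75.8 Mb. Depth is unknown because the lists hold no counts. Peak number and covered length moved with the group, and their part in the results below was not tested. The pigment cell identity of the cells was checked at gene starts: 4 of the 4 melanocyte markers with a listed start (Mitf, Tyr, Tyrp1 and Dct) had it in a region of all 4 lists. Of 5 markers of leukocytes, epithelium and fibroblasts with a listed start (Ptprc, Cd3e, Epcam, Krt5 and Pdgfra), 0 did. The endothelial markers had no listed start. Peaks did lie in the windows of Pdgfra, Col1a1, Cdh1, Pecam1 and Cdh5 in all 4 lists, and Epcam had 0 bp in each. A guided edit need not remove a peak, so peaks over Arid1a do not check that the gene was disrupted.

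Peaks covered less of the window of every member in both sgArid1a lists than in both sgScramble lists, and this was also the most common pattern among other genes. Over the 10 windows together, peaks covered 98570 and 100779 bp in the sgScramble libraries and 67598 and 80239 bp in the sgArid1a libraries. The means were 99674.5 ± 1562 and 73918.5 ± 8939 bp (SD, n = 2 each), a difference of -25.8%. The groups did not overlap. By exact permutation, two-sided, p = 0.333, which is the smallest value that 2 libraries against 2 can reach. Of all 17387 genes with peaks in at least 2 lists, 55.0% were lower in both sgArid1a lists and 3.24% were higher. Among genes with at least 4 regions, as every member had (a limit set after the values were seen), 62.0% were lower and 1.82% higher. The count of 10 of 10 members is read against those shares. As a share of all bp a list covers, Arid1a and Smarca4 were lower in both sgArid1a lists, Smarca2 and Smarcb1 were higher, and 6 members overlapped, while 15.0% of all genes were lower and 37.2% higher on that scale. With lists of equal length by −log10 p, 5 members were lower in both sgArid1a lists and 1 was higher, against 39.7% and 9.03% of all genes. With equal length by fold 2 were lower and 3 higher, against 33.5% and 14.8%. These lists all had the length of the shortest, 65353 peaks. That cut 16966 and 20260 peaks from the sgScramble lists and 0 and 5902 from the sgArid1a lists. The direction of the total turned with equal length by fold, to a difference of 12.8%. It stayed negative with equal length by −log10 p, at -12.6%.

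**Figure D1:**
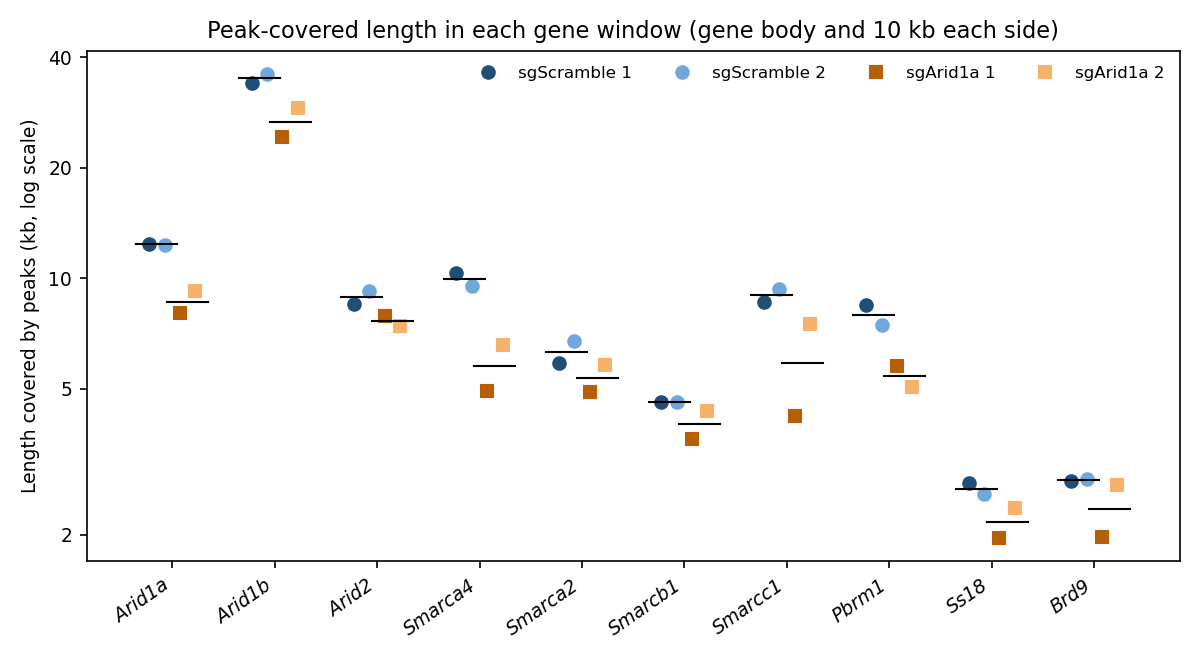
Length covered by peaks (kb, log scale) in the window of each of the 10 genes, one point per library (circles sgScramble, squares sgArid1a), with the group means as black bars. At every gene both squares lie below both circles, from a difference of -12.8% at Smarcb1 to -42.1% at Smarca4.

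In a limma fit of log2(covered bp + 100) over the 17387 genes, 0 genes passed an adjusted p of 0.05 in either direction (0% of genes), and so 0 of the 10 members did. At an unadjusted p under 0.05 limma had 3681 genes lower (21.2%) and 99 higher (0.569%), and 4 members lower: Arid1a, Arid1b, Smarca4 and Pbrm1. That count of members depended on the library left out, which leaves a group with a single library. Without sgArid1a replicate 1 or 2, the members' median log2 difference was -0.25 or -0.47, against -0.15 or -0.33 over all genes. Without sgScramble replicate 1 or 2 it was -0.38 or -0.35, against -0.26 or -0.24. With all 4 libraries the members' median log2 difference was -0.35 and that of all genes -0.25. Centring each list on its median removed that general shift and brought the median of all genes to 0.02. The members' median was then -0.08, and Arid2, Smarca2 and Smarcb1 turned to positive values of 0.05, 0.03 and 0.07.

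Regions missing from the sgArid1a lists were found at 8 of the 10 genes, and regions seen only there at 2. The share of all genes with such a region is not given here, and it depends on the number of regions per gene. The count of genes is therefore a description, and only shares of regions are compared. A region was called lost when both sgScramble lists and neither sgArid1a list had a peak in it, and gained in the reverse case. Of the 91 member regions in both sgScramble lists 16 were lost (17.6%), against 11.8% of all regions within 10 kb of a protein-coding gene (6347 of 53900). Of the 66 in both sgArid1a lists 2 were gained (3.03%), against 1.33% (559 of 41874). A further 63 regions had a peak in all 4 lists, and 51 had other patterns. Among these 51, 33 had a peak in a single library. Another 9 were missing only from sgArid1a replicate 1 (9.82% of all regions in both sgScramble lists were) and 3 only from sgArid1a replicate 2 (4.16%). Arid1a and Arid1b had 3 lost regions each, Arid2, Smarca4, Smarcc1 and Ss18 had 2 each, and Pbrm1 and Brd9 had 1 each. Smarca2 and Smarcb1 had 0.

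**Figure D2:**
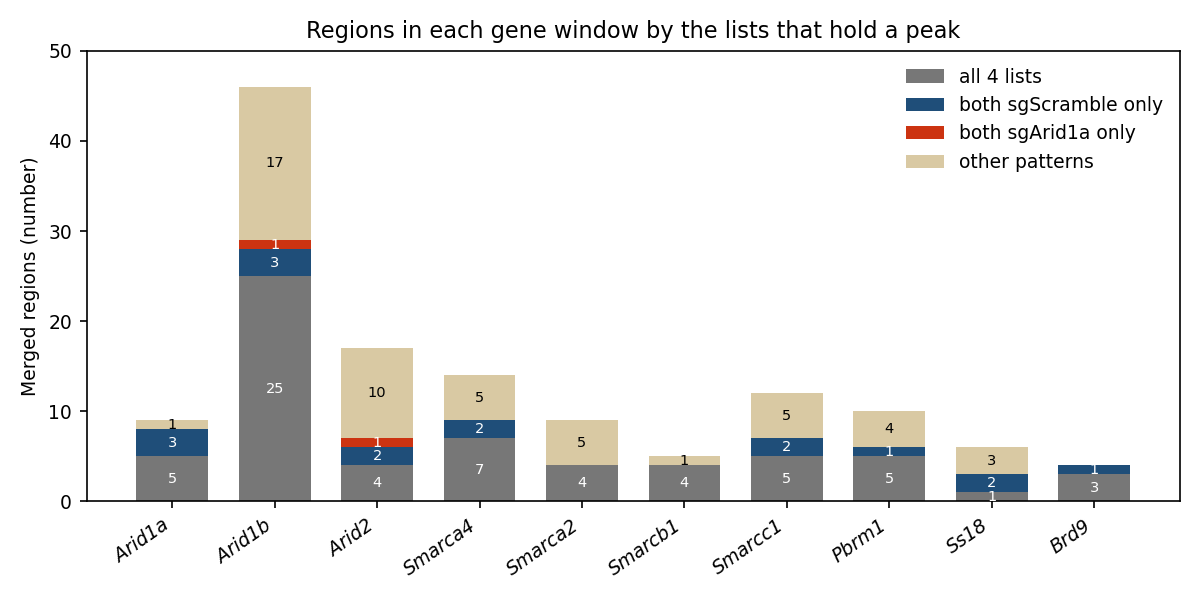
Number of merged regions in each gene window, divided by the lists that hold a peak: all 4 lists, both sgScramble lists only (lost), both sgArid1a lists only (gained), or other patterns. Arid1b has the most regions, 46 in all with 25 in all 4 lists, and Smarca2 and Smarcb1 have no lost region.

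The lost regions had a small merged width and, in the control cells, a low fold, and none held a listed gene start. Their median merged width was 663 bp. At lost regions that width joins peaks of both sgScramble lists only, and at regions in all lists it joins peaks of 4. The widths are therefore not on equal terms. The fold percentile of each lost region in the control lists, averaged over both, had a median of 16.3 and a range of 4.75 to 37.2. Regions of the members in all 4 lists had a median width of 1155 bp and a median percentile of 53.1. Over all regions near genes those values were 593 bp and 24.9 for lost regions, and 1196 bp and 64.4 for regions in all lists. In all, 15 of the 16 lost regions overlapped a gene body and 1 lay in a flank, and 12 of the 63 regions in all lists held a listed start. With only peaks of a −log10 q of at least 5, 12 of 55 member regions were lost (21.8%), against 19.1% of all regions near genes. With lists of equal length by −log10 p, both sgScramble lists still had a peak at 3 of the 16 regions, 1 list at 5 and neither at 8. The lost regions were then 3 (Smarcc1, Brd9 and Arid1b, 1 each), or 4.48% of those in both sgScramble lists against 6.14% of all regions near genes. With equal length by fold they were 2 (Arid2 and Ss18, 1 each), or 3.51% against 6.84%. The members' share was thus above that of all regions as called and below it with lists of equal length. Leaving out sgScramble replicate 1 gave 29 lost regions (26.9%, all regions 19.3%). Leaving out sgScramble replicate 2 or sgArid1a replicate 2 gave 25 each (24.5% and 27.5%, all regions 17.5% and 21.6%). The gained regions numbered 7 when sgArid1a replicate 1 was left out (8.33%, all regions 7.84%) and 8 when its replicate 2 was (10.5%, all regions 6.92%). Leaving out a library drops a condition of both definitions, so such counts can only stay or rise.

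**Figure D3:**
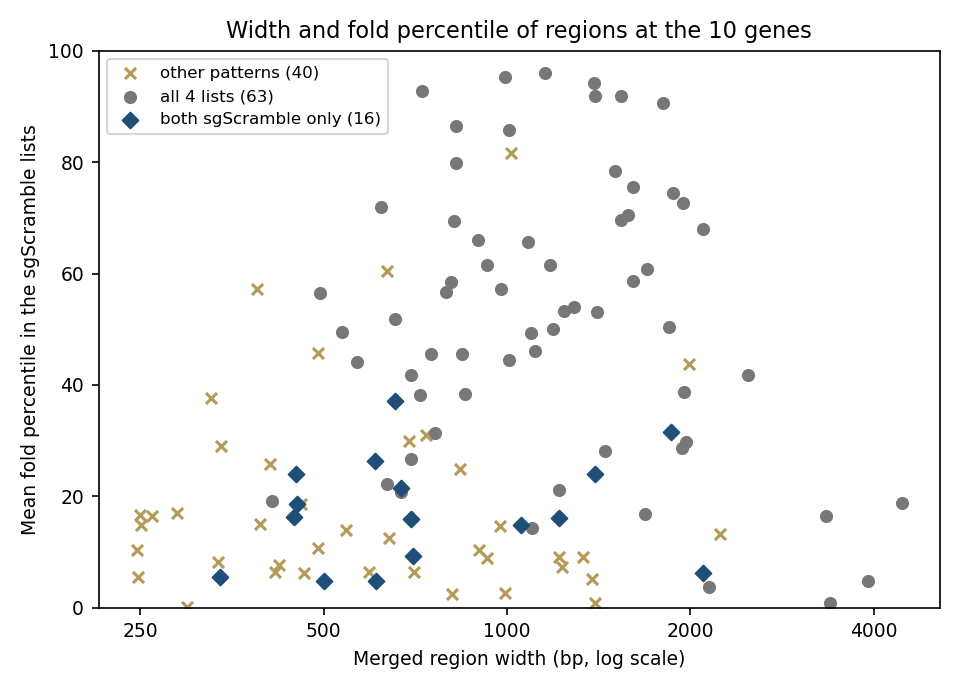
Merged width (bp, log scale) against the mean fold percentile in the sgScramble lists for member regions with a peak in at least 1 sgScramble list, by pattern. The 16 lost regions lie at or below a percentile of 37.2, while regions of all 4 lists reach 96.0, and the widest regions of all lists also have low percentiles.

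Among the ARID subunits, Arid1a, the gene targeted by the guide (chromosome 4, 133679008 to 133756769, minus strand), had 9 regions, of which 5 were in all 4 lists. Peaks covered 12410 and 12336 bp of its window in the sgScramble libraries and 8038 and 9230 bp in the sgArid1a libraries. The sgScramble libraries lay within 74 bp of each other and the sgArid1a libraries well below them, at a difference of -30.2% (limma log2 difference -0.52, SE 0.11, adjusted p = 0.155). The lost regions lay 7888, 15170 and 63259 bp downstream of the nearer listed start. The farthest of them, at 133688633 to 133690726, was 2084 bp wide in sgScramble replicate 1 and 609 bp in replicate 2. The middle one, at 133738115 to 133738815, was 699 and 611 bp wide, and the nearest, at 133745646 to 133746097, was 363 and 275 bp wide. All had fold percentiles of at most 20.7 in either control list.

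The gene has an outer and an inner listed start, and both were open in every library. The region over the outer start (133756314 to 133757761) was covered over 1448 and 1275 bp in the sgScramble and 1368 and 1373 bp in the sgArid1a libraries, so the groups overlapped. The region over the inner start (133751401 to 133754789), whose sequence holds the 7 GC box matches, was covered over 3372, 3309, 2162 and 3264 bp in the same order. Both sgArid1a libraries were lower, replicate 2 by less than the difference between the sgScramble replicates. It was the widest region in the window, and its fold stood at whole-list percentiles of 0.98, 0.89, 4.82 and 1.02. The fold is the authors' value for a whole peak, and percentiles of lists of different length show no change between libraries. The strongest peak in the window lay farther into the gene body, in the region at 133729057 to 133730668 in 3 lists (percentiles of 79.5 and 71.5 in sgScramble and 68.9 in sgArid1a replicate 2). In sgArid1a replicate 1 it was the peak at 133706693 to 133707512, at 61.8.

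**Figure D4:**
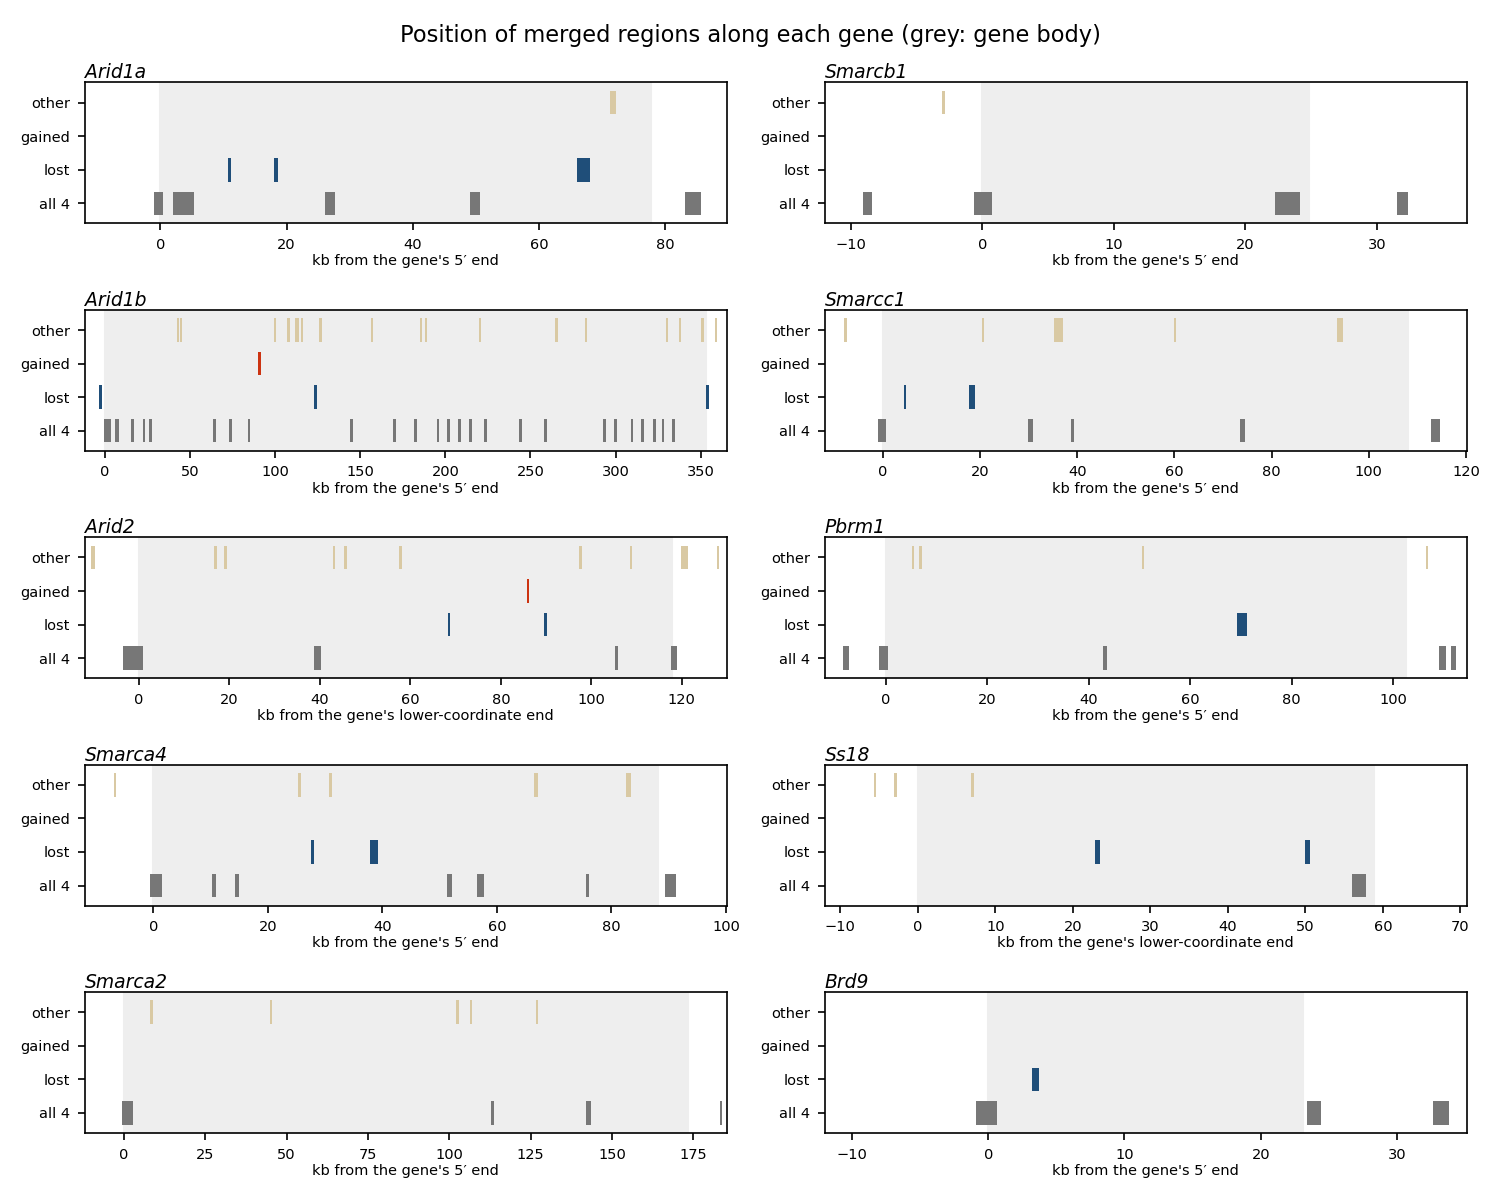
Position of merged regions along each gene in kb from the 5′ end of the gene (from the lower-coordinate end at Arid2 and Ss18, whose strand was not listed), with the gene body in grey and 1 row per pattern. The 16 lost regions lie inside gene bodies except for 1 upstream of Arid1b, and regions of all 4 lists cover the 5′ ends of the 8 genes with a listed start.

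Arid1b, the paralog that takes the place of Arid1a in BAF (chromosome 17, 4994297 to 5347656), is the longest member at 353360 bp and had 46 regions. Peaks covered 34175 and 36067 bp in sgScramble and 24288 and 29152 bp in sgArid1a libraries, a difference of -23.9% (limma log2 difference -0.40, SE 0.14, adjusted p = 0.217). The groups did not overlap, but the sgArid1a replicates differed by more than the sgScramble replicates. Its lost regions lay 3784 bp upstream of the listed start, 122107 bp downstream of it and over the far end of the gene, at 5347496 to 5348191. The last was 625 and 600 bp wide in the control lists, at percentiles of 11.8 and 20.2. A region at 5084239 to 5085131 was gained, 401 and 893 bp wide at percentiles of 22.9 and 10.3 in the sgArid1a lists. The region over the start was 3914 and 3909 bp wide in sgScramble and 3761 and 3887 bp wide in sgArid1a libraries. A peak in the gene body at 5189291 to 5190686 was the strongest of the gene in every list, at percentiles of 93.6, 90.3, 90.4 and 90.7.

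Arid2, the ARID subunit of PBAF (chromosome 15, 96287522 to 96405463), had 17 regions but only 4 in all lists. Peaks covered 8505 and 9262 bp in sgScramble and 7883 and 7420 bp in sgArid1a libraries, a difference of -13.9% (limma log2 difference -0.21, SE 0.10, adjusted p = 0.308). The gap between the groups was 622 bp, less than the 757 bp between the sgScramble replicates. Arid2 had lost regions at 96355806 to 96356256 and 96377131 to 96377801, with control percentiles of 20.6 to 24.7. Between them, at 96373272 to 96373647, lay a gained region of 338 and 366 bp. It stood at percentiles of 74.2 and 55.8 in the sgArid1a lists, higher than the median of 19.6 for gained regions near all genes. Like the gained region of Arid1b, it stayed gained under both equal-length settings. Those settings cut 0 and 5902 peaks from the sgArid1a lists and cannot add a peak to the sgScramble lists, so this is no separate check. In sgArid1a replicate 1 the gained region of Arid2 was the strongest peak of the gene.

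Of the ATPases, Smarca4 (chromosome 9, 21616106 to 21704230), whose product BRG1 drives both BAF and PBAF, had, with all libraries used, the lowest covered length relative to the sgScramble mean among the members. Peaks covered 10365 and 9548 bp in sgScramble and 4930 and 6594 bp in sgArid1a libraries, a difference of -42.1% (limma log2 difference -0.79, SE 0.17, adjusted p = 0.155). Its place among the members depended on single libraries: without sgArid1a replicate 1 the log2 difference was -0.59 at Smarca4 and -0.64 at Pbrm1, and without sgArid1a replicate 2 it was -0.998 at Smarca4 and -1.08 at Smarcc1. The higher sgArid1a library was 2954 bp below the lower sgScramble library. The start region was close in width between groups, at 2069 and 2100 bp in sgScramble and 2026 and 2011 bp in sgArid1a libraries. The lost regions lay 27450 and 37802 bp into the gene, 447 and 328 bp wide at 21643619 to 21644065 and 966 and 1393 bp wide at 21653971 to 21655363. Farther in, shared regions at 21667321 to 21668246 and 21672647 to 21673821 were narrower in both sgArid1a lists, at 71.6% and 61.7% of the sgScramble mean.

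Smarca2 (chromosome 19, 26605073 to 26778321), which encodes the alternative ATPase BRM, had 9 regions, 4 in all lists and 0 lost. Peaks covered 5878 and 6729 bp in sgScramble and 4901 and 5799 bp in sgArid1a libraries, a difference of -15.1% (limma log2 difference -0.23, SE 0.14, adjusted p = 0.386). The gap between the groups was 79 bp, far less than the spread within each. Its start region was 3257, 3333, 3205 and 3162 bp wide in sgScramble 1 and 2 and sgArid1a 1 and 2. A region past the far end of the gene, at 26788164 to 26788888, had whole-list percentiles of 94.1, 91.3, 24.6 and 84.1, so that sgArid1a replicate 1 stood apart from the other libraries there.

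The scaffold subunits differed from each other. Smarcb1 (chromosome 10, 75896769 to 75921614), which encodes the small core subunit lost in rhabdoid tumours, had 5 regions, 4 of them in all lists, and 0 lost. Peaks covered 4593 and 4602 bp in sgScramble and 3658 and 4361 bp in sgArid1a libraries, a difference of -12.8% (limma log2 difference -0.20, SE 0.13, adjusted p = 0.415). Its start region, covered over 1261, 1317, 1390 and 1294 bp, was the strongest peak of the gene in every list, at percentiles of 93.1, 95.2, 88.8 and 92.7. Smarcc1 (chromosome 9, 110132024 to 110240178), which encodes the scaffold subunit BAF155, had 12 regions. Peaks covered 8640 and 9353 bp in sgScramble, 4206 bp in sgArid1a replicate 1 and 7522 bp in sgArid1a replicate 2, a difference of -34.8% (limma log2 difference -0.67, SE 0.30, adjusted p = 0.290). The sgArid1a libraries were farther from each other than replicate 2 was from the controls. The lost regions lay 4317 and 17810 bp past the start, 338 and 254 bp and 297 and 1219 bp wide.

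Pbrm1 (chromosome 14, 31019138 to 31121592), the polybromo subunit of PBAF, shares its start region with Gnl3, whose start lies in the same region. Peaks covered 8446 and 7472 bp of the Pbrm1 window in sgScramble and 5772 and 5053 bp in sgArid1a libraries, a difference of -32.0% (limma log2 difference -0.55, SE 0.13, adjusted p = 0.160). The groups were apart by more than the spread within either. The lost region, at 31088420 to 31090277, was 1597 and 356 bp wide in the control lists and lay 293 bp from an end of Smim4, a gene that overlaps Pbrm1. Of the 16 lost regions it was the only one whose nearest gene end belonged to another gene.

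Ss18 and Brd9 were the members with the shortest covered length. Ss18 (chromosome 18, 14625629 to 14684419) encodes a subunit fused to SSX proteins in synovial sarcoma. Peaks covered 2765 and 2580 bp in sgScramble and 1956 and 2372 bp in sgArid1a libraries, a difference of -19.0% (limma log2 difference -0.30, SE 0.15, adjusted p = 0.322). Of its 3 regions in both sgScramble lists 2 were lost, at 14648548 to 14649202 and 14675562 to 14676169, and the region at 14681690 to 14683491 was in all lists with percentiles of 92.5, 88.7, 91.5 and 95.8. The former had percentiles of 45.0 and 29.4 in the control lists, the highest mean of the lost regions. Brd9 (chromosome 13, 73937801 to 73960895), the bromodomain subunit of non-canonical BAF, has a start region that also holds the start of Trip13. Peaks covered 2793 and 2830 bp in sgScramble and 1966 and 2736 bp in sgArid1a libraries, a difference of -16.4% (limma log2 difference -0.27, SE 0.19, adjusted p = 0.458). Only sgArid1a replicate 1 stood well below the controls. The strongest peak of the window in every list lay past the far end of the gene, at 73970423 to 73971577 and nearer to Zdhhc11, with percentiles of 94.4, 97.7, 97.0 and 95.6. The lost region, 3212 bp past the start, was 321 and 501 bp wide at percentiles of 2.52 and 7.13.

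Listed starts of the members had peaks in every library. All 8 members with a listed start had it in a region of all 4 lists, as did 55.2% of the 17491 protein-coding genes with a listed start. Both ends of Arid2, whose start was not listed, lay in such regions too. Neither end of Ss18 lay in a region, and its region of all 4 lists was 928 bp inside the upper end. Within 2 kb of the listed start, 0 of the 8 members passed limma's adjusted p of 0.05, and their log2 differences had a median of -0.03 (all genes -0.05). In that window 53 of 10780 genes passed, 49 lower and 4 higher.

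Shared regions, those with a peak in all 4 lists, were compared by width. Of the 63 at the members, 28 were narrower in both sgArid1a lists and 3 were wider, against 40.6% and 6.45% of all 52885 shared regions. The 3 wider regions all lay in Arid1b. The median width was 88.5% of the sgScramble mean at the members and 91.3% over all shared regions. Gene starts lay in 12 of the 63, 9 of them with a start of a member and 3 with that of a neighbour only (Pigv, Smim4 and Nt5dc2). These 12 had a median width of 96.7% and the 51 without a start 85.8%, and 8 of the 12 were narrower in both sgArid1a lists, against 38.1% of all regions holding a start. Over all shared regions these values were 96.4% and 89.2%. In limma 0 of all shared regions passed the adjusted p of 0.05 in width, with 5741 narrower (10.9%) and 512 wider (0.968%) at an unadjusted p under 0.05, among them 6 and 1 at the members. The median log2 difference in width was -0.16 at the members and -0.14 over all shared regions. Centring each list on its median turned these to 0.06 and 0.08, with 28 of the 63 member regions below 0. The unadjusted counts at the members changed with the library left out. Without centring, the medians were also taken over the regions shared by the libraries kept. Without sgArid1a replicate 1 they were -0.12 at the members and -0.09 over all, and -0.20 and -0.19 without its replicate 2. Without sgScramble replicate 1 they were -0.12 and -0.14, and -0.15 and -0.13 without its replicate 2.

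The fold of each region was also ranked among the 52885 shared regions, which gives every library the same number of ranks. This is a relative position and no measure of accessibility on its own. Both sgArid1a libraries ranked above both sgScramble libraries at 21 of the 63 member regions and below at 12, against 30.0% and 22.7% of all shared regions. At regions holding a gene start 10 of 12 ranked above and 0 below, against 59.5% and 5.27% of all such regions. The start of Smarcc1 ranked at percentiles of 49.6 and 33.4 in sgScramble and 91.9 and 74.9 in sgArid1a libraries, while its covered length was 1455 and 1588 bp against 1080 and 1385 bp. The start of Pbrm1 ranked at 20.7 and 21.1 against 60.3 and 52.3. In both cases the libraries of each group lay nearer to each other than to those of the other group. The inner regions of Smarca4 named above ranked lower, at 40.5 and 49.6 against 21.1 and 17.8, and at 37.7 and 53.0 against 14.0 and 27.2.

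In limma 0 of the shared regions passed the adjusted p of 0.05 for the fold rank. At an unadjusted p under 0.05 it had 5392 regions lower (10.2%) and 4752 higher (8.99%), with 5 of each among the 63 at the members. These member counts changed with the library left out. The median difference in fold rank, as normal scores, was 0.13 at the members and 0.05 over all shared regions. Without sgScramble replicate 1 or 2 it was 0.07 or 0.12 at the members, against 0.06 in both cases. Without sgArid1a replicate 1 or 2 it was 0.03 or 0.17, against 0.05 in both cases. Ranked by the authors' −log10 p instead of their fold, 2716 regions passed lower (5.14%) and 1348 higher (2.55%), among them 4 and 3 of the members. The higher ones held the starts of Arid1b, Smarcc1 and Pbrm1 (adjusted p in limma 0.0395, 0.0298 and 0.00394). The lower ones were the 2 inner regions of Smarca4, a region of Arid1b at 5293603 to 5294427 and a region of Smarcc1 at 110205575 to 110206566 (adjusted p in limma 0.0260, 0.0458, 0.0208 and 0.0112). At the last region the groups overlapped in fold rank, at 91.0 and 94.6 in sgScramble and 98.3 and 92.0 in sgArid1a libraries.

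**Figure D5:**
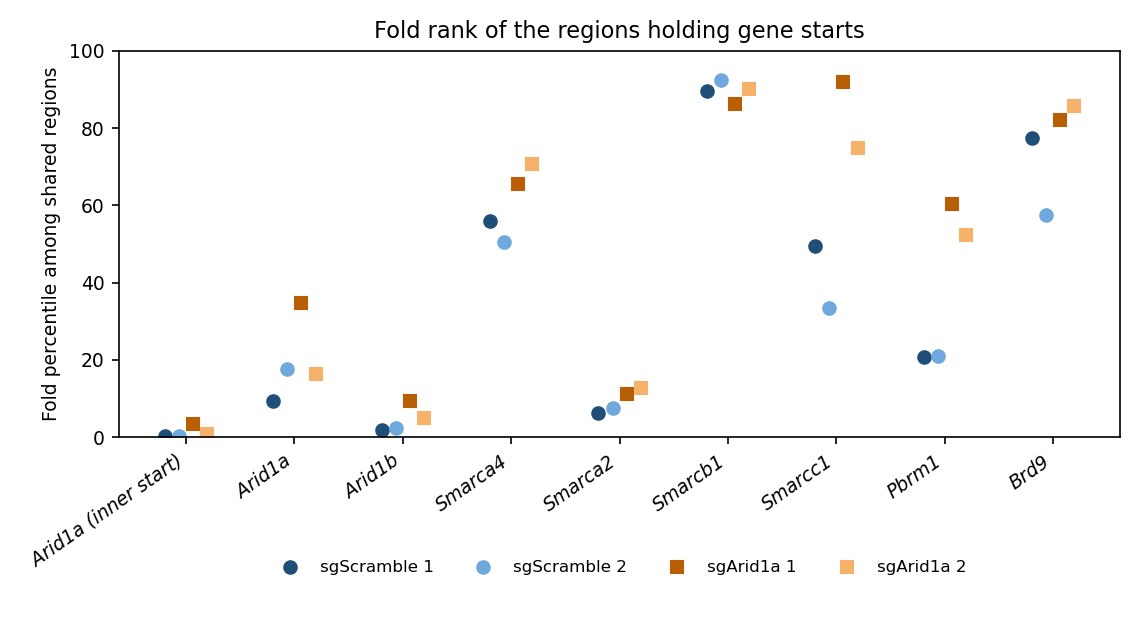
Fold percentile among the 52885 shared regions for the 9 regions that hold a start of a member, one point per library (circles sgScramble, squares sgArid1a). The squares lie above the circles at the inner start of Arid1a and at Arid1b, Smarca4, Smarca2, Smarcc1, Pbrm1 and Brd9, and the groups overlap at the outer start of Arid1a and at Smarcb1.

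The other subunit genes of these complexes, a list of 21, had a smaller share of lost regions. Of their 96 regions in both sgScramble lists 6 were lost (6.25%), and 2 of the 87 in both sgArid1a lists were gained (2.30%). Over all regions near genes these shares were 11.8% and 1.33%. The difference from the core members was not tested. Bicral, a subunit gene of non-canonical BAF, had 2 lost regions, and its paralog Bicra, Smarcd3, Dpf3 and the zinc-finger gene Bcl11a had 1 each. Actl6b, which encodes the neuronal actin-like subunit, and Bcl11b had 1 gained region each. Covered length was lower in both sgArid1a lists at 10 of the 21 genes and higher at 0, against 55.0% and 3.24% of all genes. The median limma log2 difference was -0.11, and that of all genes -0.25. As a share of all bp a list covers, 15 of the 21 were higher in both sgArid1a lists and 1, Bicral, was lower. On that scale 37.2% of all genes were higher and 15.0% lower.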

How the data were processed

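Each of the 4 libraries came with a list of broad peaks deposited by the authors, 1 list per library. The columns of the deposited lists follow the broadPeak layout: a score, a fold of the peak over its background (a ratio), and the −log10 of p and of q. HOMER and STAR (2.5.3a) appear in the submitters' processing notes without a stated role, as do mm10 and GRCm38. Which peak caller was used, and whether reads were shifted for Tn5, is not stated there. A longer list can follow from greater depth, which is unknown.

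Peaks overlapping by at least 1 bp were merged over the 4 lists. A region belonged to a gene if it overlapped the gene body extended by 10 kb (RefSeq table of GRCm38.p6). Covered length was the bp of peaks inside the window. Group means were compared by the exact permutation test, two-sided, and log2(bp + 100), log2 region width and normal scores of the fold rank by limma 3.58.1 (trend, Benjamini-Hochberg over all features), in R 4.3.3 and Python 3.11.15. The steps were tested on simulated data. Alternatives were other peak thresholds, equal list lengths, merging, overlap, windows, pseudocounts, centring, ranks by −log10 p, leaving out each library and the replicate block. The count of members lower in both sgArid1a lists was recomputed under settings added after the data were seen. The named genes were the 10 members with their lost, gained and start regions, other subunit genes with a lost or gained region, and the 3 genes most like Arid1a. Members and lists were chosen with earlier results of these data known. Without a genome sequence, the bases of lost and gained regions are not shown, and exons and introns are not told apart.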

Additional observations from a re-analysis of the deposited data

How the results depend on the processing

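Depth is unknown, and list length moved with the group. The number of lost regions at the members, 16 as called, was 4 after keeping only the 50% of peaks with the higher fold, 3 and 2 with lists of equal length by −log10 p or by fold, and 10 with peaks of at least 500 bp. As shares these were 13.8%, 4.48%, 3.51% and 16.9%, against 13.0%, 6.14%, 6.84% and 12.5% of all regions near genes. Leaving out each library in turn it ranged from 19 to 29, and the gained count, 2 as called, from 2 to 8. Each omission drops a condition of the definition, so these counts could only stay or rise. The gained count was 7 with equal length by fold and 1 each with a −log10 q of at least 5, with presence by 50% of the region and with peaks of at least 500 bp. The total covered length turned to 12.8% higher with equal length by fold and ranged from -32.2% to -19.5% without 1 library. Members lower in both sgArid1a lists, 10 as called, were 5 and 2 with equal length by −log10 p or by fold and 2 as a share of all covered bp (all settings for this count were chosen after seeing the data). In limma, windows of 2 kb around the start gave 53 calls over all genes, against 0 in the main fit, and ranking by −log10 p gave 4064 calls over all shared regions and 7 at the members. Of the members' log2 differences, 3 turned positive around the start (Arid1a 0.0194, Smarcb1 0.0535, Brd9 0.00595) and 3 with centring (Arid2 0.0523, Smarca2 0.0302, Smarcb1 0.0663). The cause of these changes was not tested.

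Same-numbered libraries of the groups are known here only to share a number, and whether they were paired is not known. Their deviations from the group means correlated at -0.0493 over 17387 genes, a value that cannot show whether they shared a batch. With the replicate block the exact permutation p of the total was 0.5, the smallest two-sided value that 2 pairs can reach. With that block limma called 429 shared regions by fold rank, 0 of them at the members, and 0 genes by covered length.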

Other observations

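Arid1a had the only shared region of the members in which a library had 2 peaks. In sgArid1a replicate 1 the region over its inner start was called as a peak of 509 bp (133751602 to 133752110, fold 2.65) and a peak of 1653 bp (133753137 to 133754789, fold 2.14), and the other libraries had a single peak there. Of all shared regions, 1.28% had 2 or more peaks in that library and 0.65% to 0.923% in the others.

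Among 7684 other genes with at least 5 regions, those whose 4 covered lengths, each divided by their mean, lay nearest to the profile of Arid1a were Rtn4r (distance 0.00965), Spsb4 (0.0120) and Itga3 (0.0140). Peaks covered 4806, 4799, 3117 and 3622 bp at Rtn4r in sgScramble 1 and 2 and sgArid1a 1 and 2. The likeness rests on 4 libraries.

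Some regions of the windows belong to neighbours. Of the 63 shared regions at the members 10 had an end of another gene as their nearest (at the start shared by Pbrm1 and Gnl3 this is a tie), among them those over the starts of Pigv beside Arid1a, and of Smim4 and Nt5dc2 beside Pbrm1.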
